A study of Mus musculus with 9 samples.

Results

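The genes described here are 10 transcription factors that set the identity of brown adipocytes or of adipocytes in general: Pparg, Cebpa, Ppara, Prdm16, Ebf2, Irf4, Zic1, Lhx8, Tbx1 and Hoxc9. They were chosen by name, and each symbol matched 1 Ensembl mouse gene among the 55416 genes of the count table. Of the 10, 8 had a median of at least 1 CPM (the count of the gene per 1000000 counts in its column) and entered the comparisons with other genes. Tbx1 and Hoxc9 fell below that level and are given by their counts.

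The samples were interscapular brown adipose tissue from C57BL/6J mice of 8 to 10 weeks that express the nuclease Cas9. All of them carried Cas9 and had AAV8, an adeno-associated virus, injected into this fat, so the samples hold no uninjected tissue. The vector delivered either a control guide RNA (5 samples) or a guide RNA against Ucp1 (4 samples), and the tissue was taken after 14 days at 22 °C. The labels do not name the promoter that drives Cas9 or the cells it is active in. The count table has 9 columns, each named by a number and the abbreviation BAT, and no number occurs in the labels. The columns were therefore taken as the brown fat samples without being given to a guide. They are called BAT-a to BAT-i here, in ascending order of the deposited numbers, and the letters carry no other meaning. The 9 columns mix both guides, a difference between columns cannot be told apart from a difference between guides, and no comparison between guides is made.

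Brown adipocytes burn fat to make heat, and they arise in the interscapular depot from progenitors of the embryonic trunk. PPAR gamma and C/EBP alpha switch on the genes of every adipocyte, from lipid uptake to triglyceride storage. EBF2 and PRDM16 steer that programme towards brown fat, EBF2 by directing PPAR gamma to brown fat genes and PRDM16 as a co-regulator that activates brown and silences muscle or white fat genes. PPAR alpha drives genes of fatty acid oxidation, and IRF4 works with the coactivator PGC-1 alpha on thermogenic genes, Ucp1 among them. ZIC1 and LHX8 are known as markers of the classical interscapular depot, while TBX1 and HOXC9 are mostly named as markers of beige or white depots.

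Column totals ran from 15460829 to 17909534 counts, and the 37 mitochondrially encoded genes took 22.3% to 33.9% of them. All 6 brown adipocyte markers and all 4 general adipocyte markers were above 1 CPM by their median, with sums of 3758 to 8068 CPM and 6525 to 8927 CPM. The brown set includes Ucp1, the guide target. Its lowest sum was in BAT-e and its highest in BAT-c, the end columns of Ucp1 itself (396 and 4620 CPM). The range of the brown sum is therefore not a measure of brown adipocyte content. The white adipocyte markers summed to 5.56 to 18.8 CPM, and Wt1 among them had no count in any column. The sum of 9 skeletal muscle markers varied 19.6-fold, from 227 CPM in BAT-c to 4444 CPM in BAT-f. In bulk tissue, fewer cells of a type and less RNA per cell cannot be told apart.

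Ucp1, the uncoupling protein gene that the guide targets, reached 4620 CPM in BAT-c, 3937 in BAT-i, 3848 in BAT-b, 3652 in BAT-f and 2704 in BAT-d. It was 606 CPM in BAT-g, 459 in BAT-a, 445 in BAT-h and 396 in BAT-e. The gap between 606 and 2704 CPM took up 60.9% of the log2 range, so the columns fell into separate ranges of 4 and 5. A correlation over all 9 columns would mainly compare those ranges, and neither holds the 6 columns needed for one of its own. The relation of the 10 factors to Ucp1 was therefore not tested, by a rule set for such separate ranges, and values are given column by column.

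The general adipocyte regulators Cebpa and Pparg came first in level. Among the factors that passed the filter they had the narrowest ranges from the lowest to the highest column. Cebpa, which keeps the adipocyte programme running once it is on, had a lowest value of 516 CPM in BAT-e, a median of 616 CPM and a highest value of 774 CPM in BAT-b. Pparg, the receptor without which fat cells do not form, ran from 216 CPM in BAT-b over a median of 261 CPM to 323 CPM in BAT-e. Both therefore spanned 1.5-fold from the lowest to the highest column, with opposite columns at the ends. Ppara was lower and spread further, from 80.1 CPM in BAT-h over a median of 119 CPM to 193 CPM in BAT-e, a 2.41-fold range. Column BAT-e thus held the highest values of both PPAR genes and the lowest value of Cebpa.

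The promoter of Pparg is shown because C/EBP proteins are known to act on it. RefSeq (GRCm38.p6) lists 3 Pparg starts, and the most downstream was the 1 window among the 11 of these factors that held the relaxed C/EBP motif TTGCNNAA. The 250 bases before that start, chr6:115421816-115422065 on the plus strand, are printed with both matches in capitals, at positions -215 and -16 relative to the start.
Pparg: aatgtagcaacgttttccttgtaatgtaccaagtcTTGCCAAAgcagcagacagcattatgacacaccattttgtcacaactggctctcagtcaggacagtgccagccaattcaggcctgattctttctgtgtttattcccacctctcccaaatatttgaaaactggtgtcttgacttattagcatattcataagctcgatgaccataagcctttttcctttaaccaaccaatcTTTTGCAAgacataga
Both strands were searched, and 10.8% of all 32851 promoter windows of 300 bases held the same motif. Of these factors 8 had at least 1 window. In all, 8 motif spellings were tried, and this promoter was picked for printing after its matches were seen. The full C/EBP palindrome TTGCGCAA, the PPAR direct repeat (AGGTCA, 1 base, AGGTCA), the EBF palindrome (TCCC, 2 bases, GGGA) and the IRF repeat (GAAA, 2 bases, GAAA) were found in none of the 11 windows, against 0.183%, 0.0396%, 0.904% and 3.44% of all windows. A looser C/EBP spelling, TTNNGNAA, matched windows of Lhx8, Pparg and Prdm16 and 40.7% of all windows. A stricter EBF and a looser PPAR spelling matched no window of these factors, against 0.469% and 0.381% of all windows. The spellings for 1 family overlap, since a full palindrome also holds the relaxed motif.

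Prdm16 and Ebf2, the factors that commit progenitors to brown fat, were present in every column, at or above 25.1 CPM. Prdm16 ran from 30.2 CPM in BAT-c over a median of 38.7 CPM to 46.7 CPM in BAT-b, a 1.55-fold range. Ebf2 ran from 25.1 CPM in BAT-c over a median of 55.0 CPM to 63.9 CPM in BAT-d, a 2.54-fold range. Column BAT-c, which also had the lowest muscle marker sum, was the lowest for both genes. For Ebf2 it stood below the next column, BAT-e, which had 40.7 CPM. Both genes were also below their medians in BAT-f, the column with the highest muscle marker sum, at 33.1 CPM for Prdm16 and 46.2 CPM for Ebf2. A relation to muscle markers was not tested.

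Irf4 had the widest relative spread of the 8 factors that passed the filter. It was 58.7 CPM in BAT-b, 50.1 in BAT-d, 45.7 in BAT-i, 33.2 in BAT-f and 26.3 in BAT-c. It was 22.4 CPM in BAT-g, 22.1 in BAT-a, 17.4 in BAT-h and 16.2 in BAT-e. The highest column was 3.63-fold above the lowest, and the widest gap between neighbouring values was smaller than that of Ucp1 relative to the range. The 5 columns highest in Irf4 were the 5 of the higher Ucp1 range, and the 4 lowest were the 4 of the lower range. This coincidence was seen in the values and has no test, and the guide of these columns is not known. It was not particular to Irf4. Elovl3, Otop1, Fabp4 and Agpat2 separated the same columns, with their higher values in the lower Ucp1 range, while other listed genes, Cd36 among them, did not. The mitochondrial share of counts separated them too, at 31.5% to 33.9% in the higher Ucp1 range and 22.3% to 26.5% in the lower. The share of all tested genes that separate these columns was not counted, so the separation is not read as a result about Irf4. Irf4 is also known as a gene of lymphocytes and macrophages. The sum of 7 immune markers ran from 23.7 CPM in BAT-d to 78.0 CPM in BAT-h, where Irf4 was next to its lowest, and the part of immune cells in Irf4 was not tested.

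Zic1 and Lhx8, the markers of the interscapular depot, were detected in every column but at low levels. Zic1 was 5.11 CPM in BAT-f, 7.49 in BAT-d, 9.22 in BAT-c and 9.49 in BAT-e. It was 12.9 CPM in BAT-b, 13.3 in BAT-g, 14.8 in BAT-a, 15.5 in BAT-i and 19.7 in BAT-h. The range was 3.85-fold, and the column with the least Zic1 was the one with the highest muscle marker sum. Other columns went the other way. BAT-i had a muscle marker sum of 2676 CPM and 15.5 CPM of Zic1, and BAT-c had the lowest sum, 227 CPM, and 9.22 CPM of Zic1. A relation of Zic1 to muscle markers was not tested. Lhx8 ran from 1.51 CPM in BAT-e over a median of 3.17 CPM to 4.61 CPM in BAT-i, on 26 to 78 counts per column. Counting error alone gives a relative error of 13.8% at the mean count of Lhx8 and of 7.0% at that of Zic1, against observed relative standard deviations of 37.8% for both.

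The promoters of both genes are printed because their base composition differs although both mark the same depot, and they were picked after that was seen. The capitals mark CG dinucleotides in the 250 bases before each start (RefSeq, GRCm38.p6, both genes on the minus strand), at chr9:91365769-91366018 for Zic1 and chr3:154330561-154330810 for Lhx8.
Zic1: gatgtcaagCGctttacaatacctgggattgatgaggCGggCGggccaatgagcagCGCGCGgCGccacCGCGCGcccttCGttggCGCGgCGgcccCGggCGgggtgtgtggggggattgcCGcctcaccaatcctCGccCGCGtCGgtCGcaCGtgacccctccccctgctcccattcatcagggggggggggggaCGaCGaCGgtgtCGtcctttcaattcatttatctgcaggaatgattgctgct
Lhx8: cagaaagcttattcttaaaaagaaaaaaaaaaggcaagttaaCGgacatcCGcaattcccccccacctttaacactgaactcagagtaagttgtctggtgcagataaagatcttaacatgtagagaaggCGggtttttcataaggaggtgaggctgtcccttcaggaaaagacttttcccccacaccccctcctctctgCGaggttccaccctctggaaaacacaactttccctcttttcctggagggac
Over the whole 300-base windows, Zic1 held 31 CG and Lhx8 held 4, while the median over all windows was 7. In the M21 annotation, exons of Zic1 and of its neighbour Zic4 on the opposite strand share 60 bases. The strand setting of the counting is not given in the sources used here, so reads from those bases cannot be assigned with certainty. Zic4 itself had a median of 1.95 CPM.

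Tbx1 and Hoxc9 were at or close to 0. Tbx1 had 45 counts over all columns, between 0 in BAT-c and 10 in BAT-f, which corresponds to at most 0.647 CPM. Hoxc9 had 4 counts in all, 1 each in BAT-c, BAT-d, BAT-g and BAT-h. A column with 0 counts allows up to 3 counts, or 0.168 to 0.194 CPM depending on its total, for counting error only. No fold is given for either gene.

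**Figure D1:**
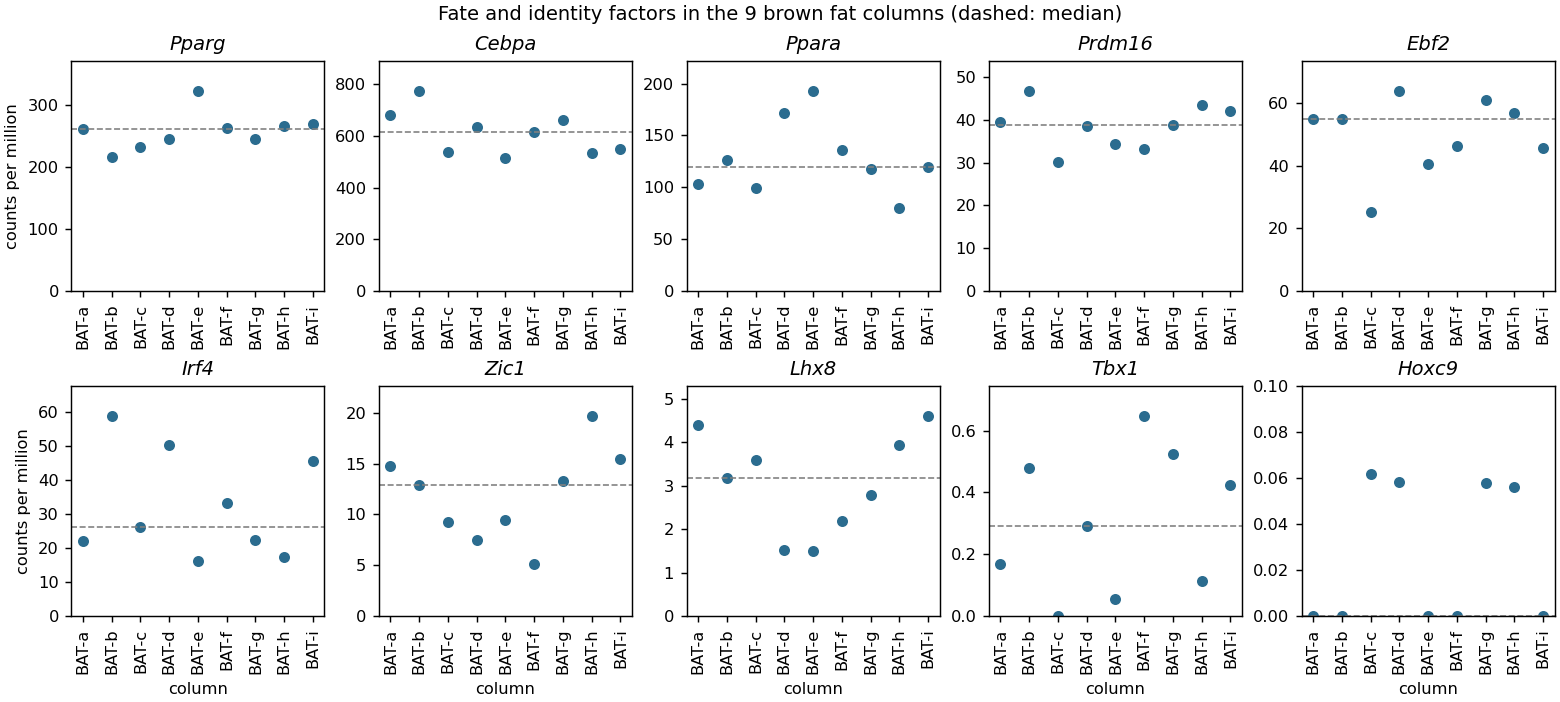
CPM of the 10 factors (1 panel each, axis from 0) in the 9 brown fat columns, from BAT-a to BAT-i, with a dashed line at the median. Cebpa and Pparg stay within a 1.5-fold range, Irf4 spans 16.2 to 58.7 CPM and Zic1 5.11 to 19.7 CPM, and Hoxc9 never exceeds 1 count.

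Levels of different genes were compared per kilobase of exon, using exon lengths of the GENCODE M21 annotation, which is on an older build than the one named for the counts. On the scale of CPM per kilobase the medians were 234 for Cebpa, 88.5 for Pparg, 31.1 for Ppara, 7.94 for Ebf2, 5.37 for Irf4, 4.16 for Prdm16, 2.27 for Zic1, 1.25 for Lhx8 and 0.0831 for Tbx1. At the top of this order the ranges of Cebpa and Pparg, of Pparg and Ppara, and of Ppara and Ebf2 did not overlap. Within a column, Cebpa exceeded Pparg per kilobase in 9 of 9 columns, with a ratio from 1.79 in BAT-e to 4.01 in BAT-b. Pparg exceeded Ppara in 9 of 9 columns, by 1.86-fold in BAT-d to 4.32-fold in BAT-h.

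The middle of the order differed between columns. Ebf2, Irf4 and Prdm16 had overlapping ranges, and Ebf2 exceeded Irf4 in only 4 of 9 columns although its median was higher. Those 4 were BAT-a, BAT-e, BAT-g and BAT-h, the columns of the lower Ucp1 range. This was seen in the values and has no test. Ebf2 exceeded Prdm16 in 9 of 9 columns, by 1.12-fold to 2.23-fold. Irf4 exceeded Prdm16 in 7 of 9 columns. Zic1 exceeded Lhx8 in 9 of 9 columns, although their ranges over columns overlapped. The ranges of Lhx8 and Tbx1 did not overlap.

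**Figure D2:**
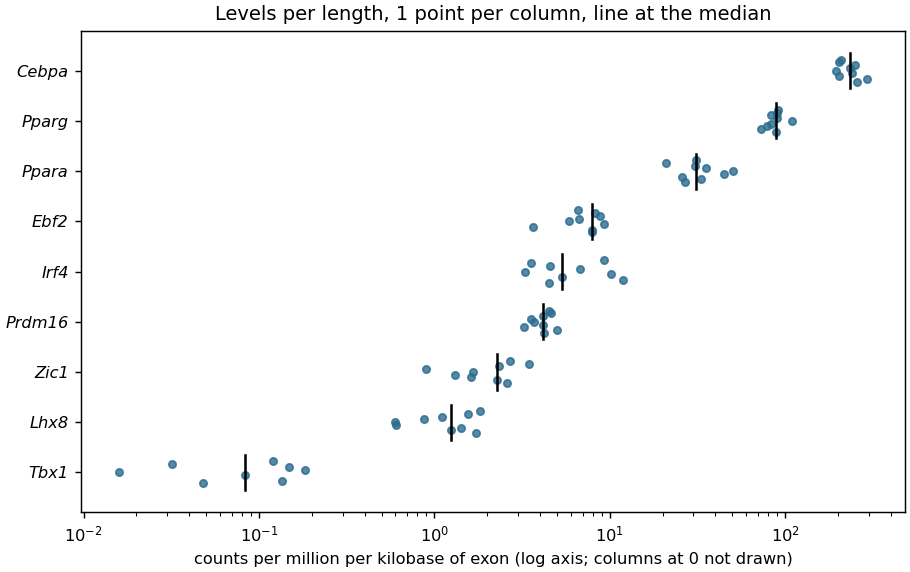
CPM per kilobase of exon (log axis) for 9 of the factors, with 1 point per column and a line at the median. Cebpa, Pparg and Ppara occupy separate ranges, while Ebf2, Irf4 and Prdm16 overlap. Hoxc9 is left out because its median is 0.

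Spread is given as the coefficient of variation (CV, the standard deviation over the mean of the 9 columns), beside that of tested genes of like level (1 of 10 equal classes by median CPM). Pparg, Prdm16 and Cebpa varied least, and Irf4, Zic1 and Lhx8 most. Pparg had a CV of 11.6%, Prdm16 of 13.6% and Cebpa of 14.0%, at the 33.2, 50.6 and 50.7 percentiles of genes of like level. Irf4 had a CV of 47.7%, at the 97.6 percentile, and Zic1 of 37.8%, at the 95.7 percentile. Ppara (27.8%), Ebf2 (24.0%) and Lhx8 (37.8%) lay at the 92.3, 89.9 and 80.2 percentiles. The median CV was 25.9% for the 8 factors and 17.3% for all 12138 tested genes. These are descriptions of a list chosen by name, and the columns include any difference between guides.

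**Figure D3:**
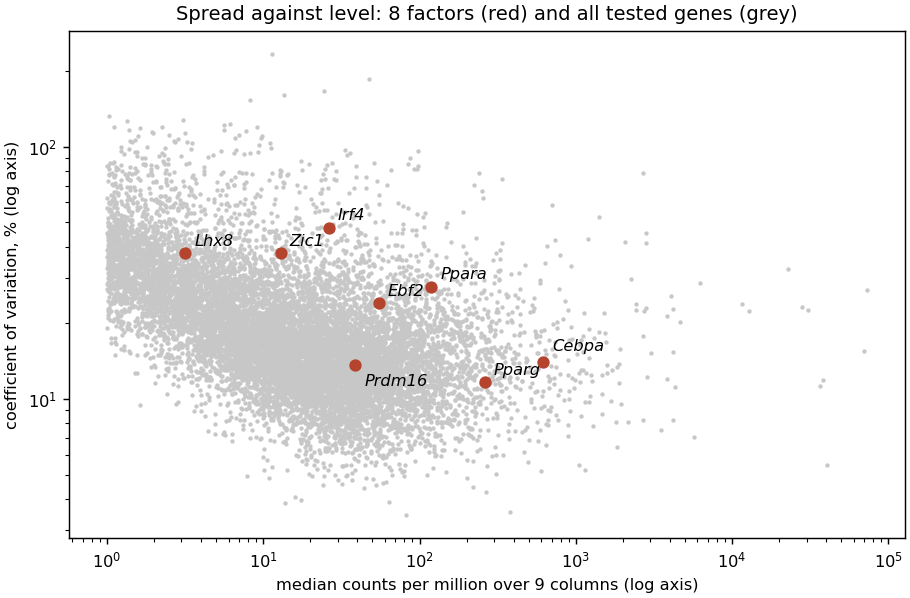
Coefficient of variation over the 9 columns (%, log axis) against median CPM (log axis), for 8 factors in red and all tested genes in grey. Irf4 and Zic1 sit near the upper edge of the cloud at their level, while Pparg, Prdm16 and Cebpa sit inside it.

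Whether the factors rose and fell together across columns was described by rank correlation. Of the 28 pairs among the 8 factors, 3 had an exact permutation p below 0.05 (Spearman, two-sided, 9 columns), which is 10.7% of pairs. Across all tested genes, 6.76% of the correlations with these 8 factors passed the same threshold. None of the 3 held after Benjamini-Hochberg adjustment over all tested genes. The median rho over the 28 pairs was 0.083, with 17 positive and 11 negative pairs. The share of pairs is near the background.

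The first of the 3 pairs joined the depot markers. Zic1 and Lhx8 had a rho of 0.73 (exact permutation p = 0.0311, adjusted p = 0.358 over all genes for Zic1 and 0.623 for Lhx8) and a Pearson r of 0.71 on the log2(CPM + 1) scale (exact permutation p = 0.0338). Without the 2 columns farthest from the Zic1 median, BAT-f and BAT-d, r was 0.62 (exact permutation p = 0.136, 7 columns). With TMM factors and with DESeq2 size factors rho was 0.82 (exact permutation p = 0.0108). Leaving out 1 column moved the exact p above 0.05 in 7 of 9 cases, with rho between 0.67 and 0.81.

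Prdm16 and Zic1 had a rho of 0.75 (exact permutation p = 0.0255, adjusted p = 0.526 over all genes for Prdm16 and 0.342 for Zic1) and an r of 0.68 (exact permutation p = 0.0443). Without BAT-c and BAT-b, the farthest from the Prdm16 median, r was 0.86. The relation depended on the scaling: rho was 0.30 (exact permutation p = 0.437) with TMM factors and also with DESeq2 size factors, and 0.53 (exact permutation p = 0.148) when mitochondrial genes were left out of the column totals. Ppara and Lhx8 went in opposite directions, with a rho of -0.75 (exact permutation p = 0.0255, adjusted p = 0.523 over all genes for Ppara and 0.605 for Lhx8) and an r of -0.85 (exact permutation p = 0.00352). Without BAT-e and BAT-h this r was -0.85 again, while leaving out BAT-b, BAT-d, BAT-e or BAT-f moved the exact p above 0.05.

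**Figure D4:**
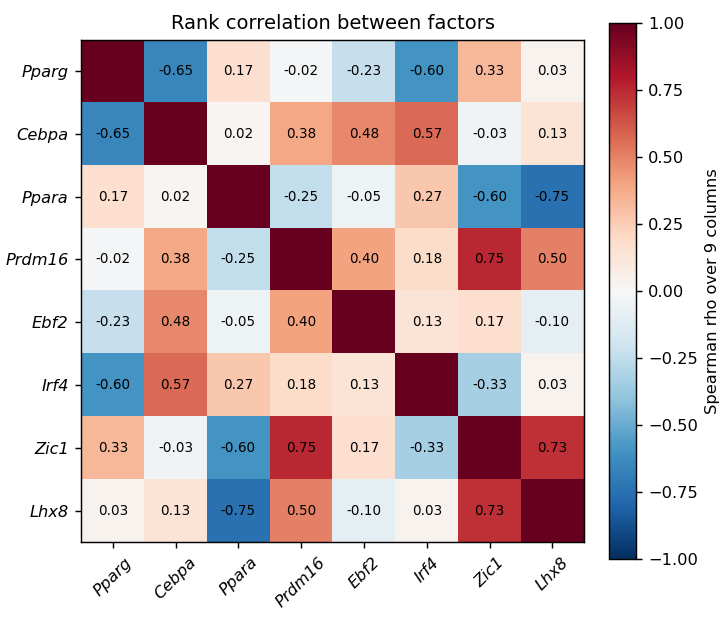
Spearman rho over the 9 columns for each pair of the 8 factors that passed the filter (red positive, blue negative). The values run from -0.75 for Ppara with Lhx8 to 0.75 for Prdm16 with Zic1, with most pairs closer to 0.

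Without the columns with the lowest and the highest muscle marker sum, the rho of Prdm16 with Zic1 was 0.61 (exact permutation p = 0.167) and that of Ppara with Lhx8 was -0.68 (exact permutation p = 0.11), both no longer past the threshold. Zic1 with Lhx8 stayed past it, with a rho of 0.82 (exact permutation p = 0.0341).

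Pairs of known partners did not pass the threshold by rank. Pparg and Cebpa had a rho of -0.65 (exact permutation p = 0.0666) and an r of -0.66 (exact permutation p = 0.0501). Without BAT-e and BAT-b the r was -0.05, so the relation rests on those columns. Prdm16 and Ebf2 had a rho of 0.40 (exact permutation p = 0.291) and an r of 0.72 (exact permutation p = 0.0212), which fell to 0.49 without BAT-c and BAT-b. Ebf2 with Zic1 gave a rho of 0.17, and Irf4 with Prdm16 one of 0.18.

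The wider set of patterning genes, which carry positional identity from the embryo into the depot, was read beside Zic1. Of 13 such genes, 8 passed the filter, and 4 of them (Hoxa5, Hoxc4, Hoxc5 and Hoxc6) ran with Zic1 by rank at an exact p below 0.05, where 9.1% of all tested genes did so. Of the 4, 3 are Hoxc genes, and how far the 4 vary with each other was not tested, so they are not counted as separate agreements. None of the 4 held after adjustment over all genes. Hoxa5 came closest, with a rho of 0.90 (exact permutation p = 0.00203, adjusted p = 0.173) and an r of 0.96 (exact permutation p = 6.89e-05). Hoxa5 ran from 18.9 CPM in BAT-f to 50.3 CPM in BAT-h, the same end columns as Zic1. Without the 2 farthest columns its r with Zic1 was 0.90. For the other 3 genes the relation was weaker on the log2 scale. The r was 0.55 for Hoxc4 (exact permutation p = 0.121), 0.69 for Hoxc5 (exact permutation p = 0.0398) and 0.61 for Hoxc6 (exact permutation p = 0.0791). Without the 2 farthest columns it was 0.65, 0.52 and 0.60. The median rho of the 8 patterning genes with Zic1 was 0.67, against 0.18 for all tested genes. Prdm16 ran with 3 of the 8 (Hoxa5, Hoxc4 and Hoxc5, rho 0.80 to 0.88), where 5.73% of tested genes ran with it and 7.42% passed in either direction. Its r was 0.62 with Hoxa5 (exact permutation p = 0.0746), 0.85 with Hoxc4 (exact permutation p = 0.00314) and 0.66 with Hoxc5 (exact permutation p = 0.0545). No relation of Prdm16 with genes outside the 8 factors was run with TMM or DESeq2 scaling, where its rho with Zic1 fell to 0.30. Lhx8 ran with 2 (Hoxa5 and Hoxc5), against 4.43% of tested genes in that direction and 6.58% in either. Hoxa5 ran opposite to Ppara (rho -0.70), where 5.92% of tested genes did so and 7.9% passed in either direction.

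Of the other patterning genes, Meox2 (median 12.1 CPM), known from trunk mesoderm and muscle, was present in all columns, as was Tbx15 (5.14 CPM). Hoxc10 and Tcf21, known from white depots, had medians of 0 CPM, with at most 4 and 1 counts in a column. Hoxc8, also known from white depots, passed the filter with a median of 3.03 CPM and 22 to 120 counts per column. Zic2 and Pax3 also had medians of 0. En1 stood just under the filter, with a median of 0.990 CPM.

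Zic1 was also read beside genes of lipid handling. Of 13 general adipocyte genes, 5 ran with Zic1 at an exact p below 0.05, namely Fabp4, Lpl, Cd36, Cidec and Slc2a4, where 9.1% of all tested genes did so. None of the 5 held after adjustment, and the other genes of the list, Plin1, Lipe and Pnpla2 among them, did not pass. Cd36, a fatty acid transporter, had a rho of 0.97 (exact permutation p = 0.000165, adjusted p = 0.134). Lpl, the lipase that frees fatty acids from lipoproteins, had a rho of 0.95 (exact permutation p = 0.000353, adjusted p = 0.165). Its r on the log2 scale was 0.93 (exact permutation p = 0.000196), and 0.88 without the 2 farthest columns. For Cd36 the r was 0.88 (exact permutation p = 0.00185), and 0.78 without them. Without the same columns the r with Zic1 was 0.39 for Fabp4, 0.54 for Cidec and 0.52 for Slc2a4. Of the 10 brown adipocyte genes, 1 ran with Zic1 and 1 opposite, against 9.1% and 1.99% of tested genes, and the median rho of the list was 0.525. The first was Fabp3, a fatty acid binding protein, with a rho of 0.73 (exact permutation p = 0.0311, adjusted p = 0.358). Adrb3, the beta-3 adrenergic receptor, ran opposite, with a rho of -0.80 (exact permutation p = 0.0138, adjusted p = 0.296) and an r of -0.79 (exact permutation p = 0.0117).

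Adipocyte genes were also read beside the other factors. Cidea, a lipid droplet protein abundant in brown fat, had a rho of 0.88 with Lhx8 (exact permutation p = 0.00308, adjusted p = 0.599) and of -0.88 with Ppara (exact permutation p = 0.00308, adjusted p = 0.486). It was the only 1 of the 10 brown adipocyte genes called with either factor, against 4.43% and 5.92% of tested genes in those directions. Of the 13 general adipocyte genes, 4 ran with Lhx8 (Lpl, Pnpla2, Cidec and Dgat2) and 2 ran opposite to Ppara (Pnpla2 and Slc2a4), where 4.43% and 5.92% of tested genes did so. Irf4 ran opposite to Fabp4 and Agpat2 (2 of 13), where 11.0% of tested genes did so and 3.02% ran with it. Irf4, Fabp4 and Agpat2 each separated the columns of the lower Ucp1 range from those of the higher. These correlations therefore mainly compare those ranges. Cpt1b, which admits fatty acids to mitochondria, ran with Cebpa (rho 0.72), where 1.1% of tested genes did. Lpl ran with Prdm16 (rho 0.77) and Adrb3 ran opposite to it (rho -0.75), where 5.73% and 1.68% of tested genes did. Their r was 0.65 (exact permutation p = 0.0601) and -0.52 (exact permutation p = 0.153). Cfd ran opposite to Ebf2 (rho -0.70), where 2.1% of tested genes did. No gene of the 4 lists passed with Pparg, where 1.02% of tested genes ran with it. None of these relations held after adjustment over all genes.

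**Figure D5:**
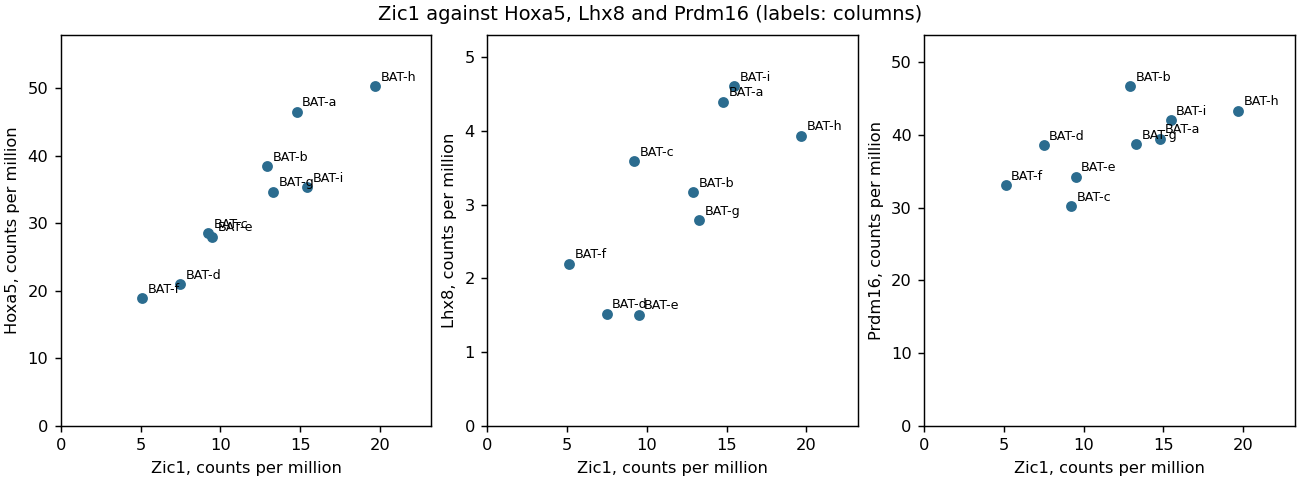
CPM of Hoxa5, Lhx8 and Prdm16 against Zic1, with 1 point per column labelled by its name and axes from 0. Hoxa5 follows Zic1 closely (rho 0.90), and Lhx8 and Prdm16 scatter more widely (rho 0.73 and 0.75, the last falling to 0.30 with TMM or DESeq2 scaling).

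All 18 other regulators of brown fat passed the filter. Nfia, which opens brown fat enhancers ahead of PPAR gamma, varied least, from 137 to 161 CPM with a CV of 5.10%. Ehmt1, the methyltransferase partner of PRDM16, had a CV of 7.73% and a median of 26.5 CPM. Rxra, the partner receptor of the PPARs, ran from 84.9 to 112 CPM. Ppargc1a, which encodes PGC-1 alpha, varied most, from 46.7 CPM in BAT-i to 392 CPM in BAT-e.

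Few of these 18 regulators followed a factor by rank. With Prdm16, 1 ran with it (Mecom, its close relative, rho 0.82) and 2 ran opposite (Ebf1 and Rxrg), where 5.73% and 1.68% of all tested genes did. With Ebf2, Ebf3 ran with it (rho 0.72) and Cebpd and Klf15 ran opposite, against 1.07% and 2.1% of tested genes. Klf11 ran with Ppara (rho 0.77) and Esrra ran opposite (rho -0.83), against 1.99% and 5.92%. Klf11 ran opposite to Zic1 and to Lhx8, with background shares of 1.99% and 2.15%. With Pparg, Cebpa and Irf4 the count was 0 of 18 at an exact p below 0.05, where 1.79%, 2.05% and 14.1% of tested genes passed. No regulator passed after adjustment over all genes with any of the 8 factors.

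The genes most like Irf4 by Pearson r of log2(CPM + 1) over the 9 columns were Arhgef40 (0.97), Med12 (0.96) and Lrp1 (0.94). Since Irf4 separated the columns of the lower and the higher Ucp1 range, its r values may mainly compare those ranges. For Zic1 they were Msi2 (0.97), Arl6ip1 (0.96) and March3 (0.96), and for Lhx8 they were Snhg3 (0.94), Syt12 (0.94) and Eci2 (0.94). Prdm16 was most like Arntl2 (0.97), Plekha8 (0.96) and Cradd (0.96), and Ebf2 most like Lama4, Tbc1d4 and Rab11fip5 (each 0.90). Ppara was most like Tmem171 (0.97), Gatad2b (0.93) and Sox5 (0.92). Pparg was most like Fam118b (0.90), Napg (0.87) and Necap1 (0.87), and Cebpa most like Arhgef11, Mfsd4b4 and Bnc2 (each 0.91). These r values describe the best of 12137 genes and carry no test.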

How the data were processed

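RNA of interscapular brown fat was sequenced from 9 samples. The authors deposited raw counts for each Ensembl gene, as whole numbers. The submitters' processing notes name FastQC, STAR, DESeq2 and the build GRCm39, without versions or roles. The annotation release, strand setting or counting mode is not given in the sources used here. All 9 columns were kept, on the abbreviation BAT that every sample label shares. Symbols came from a GENCODE M21 table (GRCm38) for 52083 of 55416 genes, and 0.187% of counts lay in rows without one.

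Counts were divided by column totals to give CPM. Genes with a median of at least 1 CPM were tested (12138). Spearman correlations had two-sided exact permutation tests over all 362880 pairings, adjusted by the Benjamini-Hochberg method over all tested genes, and Pearson r used log2(CPM + 1). The procedure was tested on simulated data. The alternatives were edgeR 4.0.16 TMM factors, DESeq2 1.42.0 size factors, other totals and filters, and single columns left out. Calculations used Python 3.11.15 and numpy 2.4.6. The planned correlation with Ucp1 was not made, because Ucp1 fell into separate ranges by the rule set for that case, a gap of over 0.5 of the log2 range with at least 3 columns on each side. The members and gene lists were chosen with earlier results of these data known. Beyond the 10 factors, text names the 3 genes with the highest r for each and genes of the lists. Nothing states that the samples came from separate animals, so p-values describe only how values are paired over these columns. They treat the columns as interchangeable, although the columns mix both guides.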

Additional observations from a re-analysis of the deposited data

Results flagged for a closer look

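Among 34 factors, regulators and patterning genes above 1 CPM, 2 had 1 column far from the other 8, and chance alone marks about 1 in 20. Ppargc1a stood at 392 CPM in BAT-e, with the next column at 149.5 CPM, a gap of 0.703 of the whole range, above the 95% critical value for 9 samples. Pparg stood at 323 CPM in the same column, with the next at 270.2 CPM and a gap of 0.495 of the range.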

How the results depend on the processing

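The number of pairs of factors with an exact p below 0.05, 3 of 28, was 5 when mitochondrial genes were left out of the column totals and 1 of 21 with a filter of 10 CPM. With 1 column left out it ranged from 0 (without BAT-f) to 5 (without BAT-c), and it was 1 without BAT-b or BAT-d. The number of factors with a CV above the median of like-level genes, 7 of 8, ranged from 5 to 7 over all 16 alternatives. By definition as many tested genes lie above that median as below it, and Prdm16 and Cebpa were barely above, at the 50.6 and 50.7 percentiles. The 5 came without BAT-b and with the filter of 10 CPM, which leaves out Lhx8. The gap in Ucp1 remained above 0.5 of its range in all 14 run. Zic1 with Hoxa5 kept an exact p below 0.05 in all 16 alternatives, with a coefficient of 0.82 to 0.96, and this pair was picked for them after its values were seen. Median CPM values stayed within 1 standard deviation in 133 of 140 cases, and the other 7, all higher, came from leaving mitochondrial genes out of the totals, which makes the divisor smaller. Leaving out BAT-c and BAT-f, the ends of the muscle marker range, was chosen after seeing the data and gave 4 pairs. The alternatives applied to pairs of factors had been planned for the correlation with Ucp1, which was not made under any of them. No paired analysis was possible because neither replicate numbers nor guides mark the columns. Depth limits Tbx1 and Hoxc9, where counts per column did not exceed 10.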

Other observations

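Ucp1 fell into separate ranges over the unassigned columns, and the mitochondrial share of counts is given beside it. The share was 31.5% in BAT-c (Ucp1 4620 CPM), 31.8% in BAT-i (3937 CPM), 33.8% in BAT-b (3848 CPM), 33.9% in BAT-f (3652 CPM) and 33.2% in BAT-d (2704 CPM). It was 26.5% in BAT-g (606 CPM), 22.3% in BAT-a (459 CPM), 24.9% in BAT-h (445 CPM) and 25.8% in BAT-e (396 CPM). The labels tie none of these columns to a guide.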
